A study of Mus musculus with 16 samples.

Results

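The Frizzled genes Fzd1 to Fzd10 encode the mouse receptors that bind secreted Wnt proteins at the cell surface. They were chosen by name from the gene symbols of the count table: all 10 were among its 55228 symbols, and all 10 were among the 18254 genes that passed the filter on low counts and were tested. RNA was sequenced from mesenchyme, the tissue under the epithelial lining, of wildtype, untreated CD-1 mice at embryonic day 16.5, an outbred stock. The 4 groups were male pelvic urethra, female pelvic urethra, male bladder and female bladder, with 4 libraries each. A library holds tissue of 1 sex pooled within 1 of 4 litters, so each litter gave 4 libraries, and no value belongs to a single embryo. The 8 libraries of a tissue therefore come from 4 litters. Its purpose was to tell the mesenchyme of the bladder from that of the urethra by gene expression. All values come from counts of read pairs per gene. They are given as CPM, the count relative to a library total adjusted by TMM, or as FPKM, the CPM per kilobase of exon, where genes are set side by side.

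Frizzled proteins pass through the membrane several times and hold a cysteine-rich domain outside the cell that grips a lipid on the Wnt ligand. With the co-receptors Lrp5 and Lrp6 they recruit Dishevelled and keep beta-catenin from being degraded, so that it enters the nucleus and works with Tcf and Lef factors. With Ror, Ryk, Vangl and Celsr proteins they also act in planar cell polarity, which orients cells within a tissue, and some raise calcium inside the cell. In the embryonic bladder and urethra, Wnt signals pass between epithelium and mesenchyme and are known for roles in growth and in muscle and genital patterning. By sequence the family falls into Fzd1, Fzd2 and Fzd7, then Fzd5 and Fzd8, then Fzd3 and Fzd6, and last Fzd4, Fzd9 and Fzd10.

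All members carry a motif of lysine, threonine, any 3 residues and tryptophan on the inner side of the last membrane pass, which Dishevelled binds. The coding sequences of 9 members over this motif are shown because they mark what the receptors share and where the subfamilies part. They were read from the GENCODE transcripts, with the 18 bases of the motif in capitals.
Fzd1: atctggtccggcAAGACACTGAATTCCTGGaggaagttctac
Fzd2: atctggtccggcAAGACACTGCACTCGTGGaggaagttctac
Fzd7: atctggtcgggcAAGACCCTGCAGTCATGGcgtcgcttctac
Fzd5: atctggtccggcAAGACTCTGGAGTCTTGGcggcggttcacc
Fzd3: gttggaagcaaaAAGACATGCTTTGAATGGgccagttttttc
Fzd6: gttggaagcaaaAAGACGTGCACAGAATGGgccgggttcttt
Fzd4: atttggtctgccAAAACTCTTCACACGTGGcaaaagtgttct
Fzd9: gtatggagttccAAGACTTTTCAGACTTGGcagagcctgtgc
Fzd10: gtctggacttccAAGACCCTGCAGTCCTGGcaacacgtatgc
Each coding sequence held the motif once. The coding sequence ended 51 bases after the motif in Fzd1, Fzd2 and Fzd7, but 477 bases after it in Fzd3 and 618 bases after it in Fzd6, whose inner tails are long. Over whole coding sequences Fzd1 and Fzd2 were 79.0% identical, Fzd5 and Fzd8 73.2%, Fzd9 and Fzd10 68.4% and Fzd3 and Fzd6 58.2%. No exact stretch of 100 exon bases of 8 members occurred in the transcripts of another gene. Shorter or nearly identical stretches were not searched. The Fzd3 gene overlaps Gm27263 on the same strand and Gm9086 on the other, and shared no such stretch with them. Of the Fzd5 stretches 15% also lay in Gm38058 and of the Fzd6 stretches 1.08% in Gm26704, both on the opposite strand, and counting used the strand.

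Library totals ran from 24447435 to 29698009 counts in the urethra and from 18577097 to 22293812 in the bladder (n = 8 each), so depth went with tissue. The mesenchyme label was checked against Pdgfra, Col1a1 and 6 other markers, all of which had counts in every library, with summed levels of 10260 to 12430 CPM in the urethra, against 16400 to 20650 CPM in the bladder. These markers did not move together: 2 of 8 were higher in the urethra, Pdgfra by 2.21 and Twist1 by 1.80 (log2), 5 were lower, with Col1a1 at −1.16, and Dcn was not called at 0.02. Markers of other cells were present too, and most went with tissue. Summed neuron markers were at 1801 to 2943 CPM in the urethra, against 55.2 to 505.6 CPM in the bladder, with 10 of 10 genes higher in the urethra. Skeletal muscle markers were at 104 to 191 CPM in the urethra, against 4.32 to 9.27 CPM in the bladder, where Pax7, Chrng and Mymk were at 0 in up to 5 libraries. Glia markers (7 of 7 genes) and endothelium markers (9 of 10) were also higher in the urethra, at 194 to 246 against 62.3 to 118 CPM and at 543 to 705 against 325 to 509 CPM. The endothelium marker Egfl7 was lower, at −0.68 (log2). Smooth muscle markers were lower in the urethra (8 of 8 genes), at 1603 to 2122 CPM against 14210 to 18120 CPM in the bladder. Mesothelium markers were also lower there (4 of 5), at 109 to 146 CPM against 461 to 907 CPM. Epithelium markers, of a layer the dissection was meant to remove, were lower in the urethra in 10 of 14 genes, at 664 to 2333 CPM against 1998 to 4847 CPM in the bladder. They did not all move together: Grhl2 was higher in the urethra, at 0.40 (log2), and Epcam, Krt5 and Trp63 were not called. Immune cell markers were at 66.7 to 83.9 CPM in the urethra, against 55.4 to 78.9 CPM in the bladder, with 2 of 6 genes higher and 1 lower. Apart from the 3 muscle genes no marker was at 0 in any library. The part of these cells in the Frizzled differences was not tested. An epithelium covariate is given with Fzd2 and Fzd6, but it went with tissue itself, so it cannot test this part. This mean log2 CPM of the 14 markers ran from 5.12 to 7.02 in the urethra, against 6.64 to 7.94 in the bladder. In bulk tissue, more cells of a type and more RNA per cell cannot be told apart.

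In the urethra 9 of the 10 Frizzled genes were higher than in the bladder and Fzd4 was lower. Fzd10 differed by 6.51-fold, Fzd1 and Fzd3 by 1.90-fold and 1.91-fold and Fzd8 by 1.76-fold, and the other 5 that were higher by 1.27-fold to 1.56-fold. Fzd4, the receptor that also binds Norrin, was at 0.649 times its bladder level. All 10 passed an adjusted p of 0.05 in edgeR's quasi-likelihood test with Benjamini-Hochberg adjustment over all tested genes, on the mean of both sexes. These tissues differ widely: 75% of all tested genes passed the same test, 36.5% higher in the urethra and 38.5% lower. The median log2 fold change was 0.61 over the 10 members and −0.03 over all tested genes. The CPM of the 8 urethra libraries did not overlap those of the 8 bladder libraries in 6 members (Fzd1, Fzd3, Fzd4, Fzd7, Fzd8 and Fzd10), against 42.3% of all tested genes. In each member the urethra library and the bladder library of the same litter and sex differed in 1 direction in 8 of 8 pairs. These pairs come from 4 litters, and the share of all tested genes that did the same is not given here. On plain library totals the median over all genes was higher by 0.14 (log2) and the share of higher genes among those called was 60.8%, against 48.7% with TMM; all 10 Frizzled genes kept their direction and call.

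**Figure D1:**
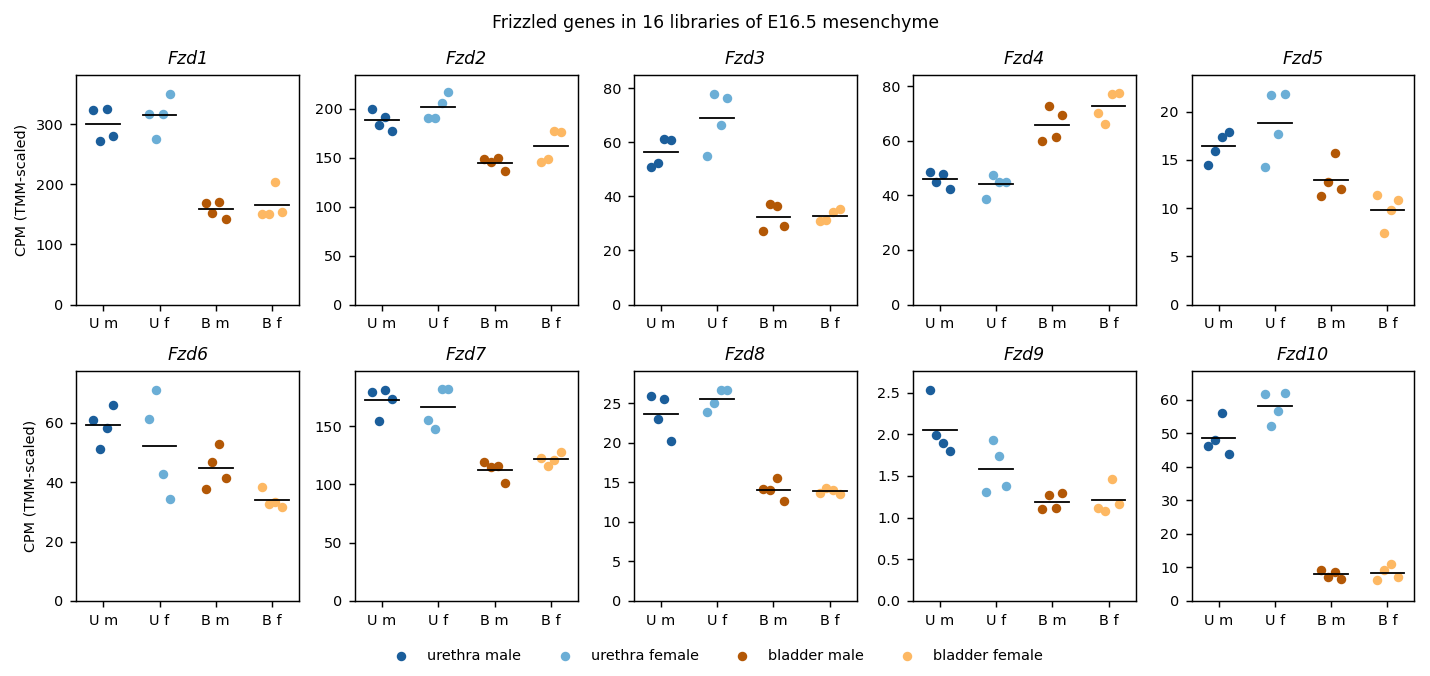
Level of each Frizzled gene in the 16 libraries, in TMM-scaled CPM on axes that start at 0. Points are libraries, bars are means of 4 libraries, and U, B, m and f stand for urethra, bladder, male and female. Fzd10 lies between 43.9 and 61.9 CPM in the urethra and between 6.27 and 10.99 CPM in the bladder, and Fzd4 is the member whose urethra libraries all lie under its bladder libraries.

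Fzd1, Fzd2 and Fzd7, close relatives that can signal through beta-catenin, were the most abundant members in both tissues. Fzd1 had a lowest, median and highest level of 271.7, 317 and 350.8 CPM in the urethra, against 141.9, 153.7 and 203.3 CPM in the bladder. The lowest urethra library thus lay above the highest bladder library, a female bladder library of litter 3 that stood apart from the other 7. Its log2 fold change was 0.93 ± 0.07 (SE), with an adjusted p of 5.53e-09 in edgeR's quasi-likelihood test.

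Fzd2 had 177.1, 191.6 and 217.7 CPM in the urethra, as lowest, median and highest, against 136, 149 and 177.7 CPM in the bladder. The ranges met at their edge, where the female bladder library of litter 3 reached the lowest urethra library. The log2 fold change of Fzd2 was 0.34 ± 0.05 (adjusted p = 9.95e-06, edgeR), the smallest of the 10. With the mean log2 CPM of the epithelium markers as a covariate it was 0.16 ± 0.07 (adjusted p = 0.0622, edgeR), no longer past the threshold, and over all 24 alternatives it ran from 0.16 to 0.48.

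Fzd7 had 147.8, 176.5 and 182.1 CPM in the urethra, against 101.3, 117.5 and 128 CPM in the bladder, again as lowest, median and highest. No urethra library came down to the bladder range. The log2 fold change was 0.53 ± 0.05 (adjusted p = 1.15e-07, edgeR).

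Fzd5 and Fzd8 are close relatives, of which Fzd5 is a known receptor of Wnt5a and Wnt7 ligands and is needed for the yolk sac vasculature in mice. Fzd8 had 20.27, 25.26 and 26.71 CPM in the urethra, against 12.57, 14.04 and 15.56 CPM in the bladder. All 8 urethra libraries lay above all 8 bladder libraries, and the log2 fold change was 0.82 ± 0.06 (adjusted p = 2.31e-09, edgeR). Fzd5 had 14.5, 15.9, 17.4 and 17.9 CPM in male urethra and 14.3, 21.7, 17.7 and 21.8 CPM in female urethra, in litters 1 to 4. It had 11.3, 12.7, 15.7 and 12.03 CPM in male bladder and 11.4, 7.39, 9.77 and 10.8 CPM in female bladder. The female tissues were apart, while the male bladder library of litter 3 lay within the range of the male urethra. Over both sexes Fzd5 was higher in the urethra by 0.64 ± 0.11 on the log2 scale (adjusted p = 4.04e-05, edgeR).

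Fzd3 and Fzd6 are the members best known for planar cell polarity, in hair follicles, the inner ear and growing axons. Fzd3 had 50.7, 52.5, 61.1 and 60.7 CPM in male urethra and 55.0, 77.7, 66.5 and 76.4 CPM in female urethra. It had 27.2, 37.2, 36.3 and 29.1 CPM in male bladder and 30.7, 31.4, 34.2 and 35.1 CPM in female bladder. Every urethra library lay above every bladder library, and the female urethra libraries of litters 2 and 4 were the highest. The same 2 libraries had the highest summed neuron markers, 2943 and 2744 CPM, and the highest summed glia markers, 246 and 230.6 CPM. Fzd5 was also highest in these 2 libraries, at 21.7 and 21.8 CPM. Whether neurons or glia gave part of this Fzd3 or Fzd5 RNA was not tested. Between tissues the log2 fold change of Fzd3 was 0.93 ± 0.08 (adjusted p = 2.69e-08, edgeR).

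Fzd6 had 61.0, 51.2, 58.3 and 66.0 CPM in male urethra and 61.2, 71.1, 42.7 and 34.4 CPM in female urethra, in litters 1 to 4. It had 37.8, 46.9, 52.8 and 41.4 CPM in male bladder and 38.3, 32.7, 33.3 and 31.7 CPM in female bladder. The 2 lowest urethra libraries, from females of litters 3 and 4, and the male one of litter 2 fell within the bladder range. The 2 female libraries also had the lowest epithelium markers of all 16, at a mean log2 CPM of 5.76 and 5.12, against 6.52 to 7.02 in the other 6 urethra libraries and 6.64 to 7.94 in the bladder. Fzd6 had a log2 fold change of 0.51 ± 0.13 (adjusted p = 0.00165, edgeR). Without these 2 libraries it was 0.69 ± 0.08 (adjusted p = 2.38e-06), and with the epithelium markers as a covariate it was 1.09 ± 0.12 (adjusted p = 1.49e-06). The covariate thus gave a larger difference for Fzd6 and a smaller one for Fzd2.

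**Figure D2:**
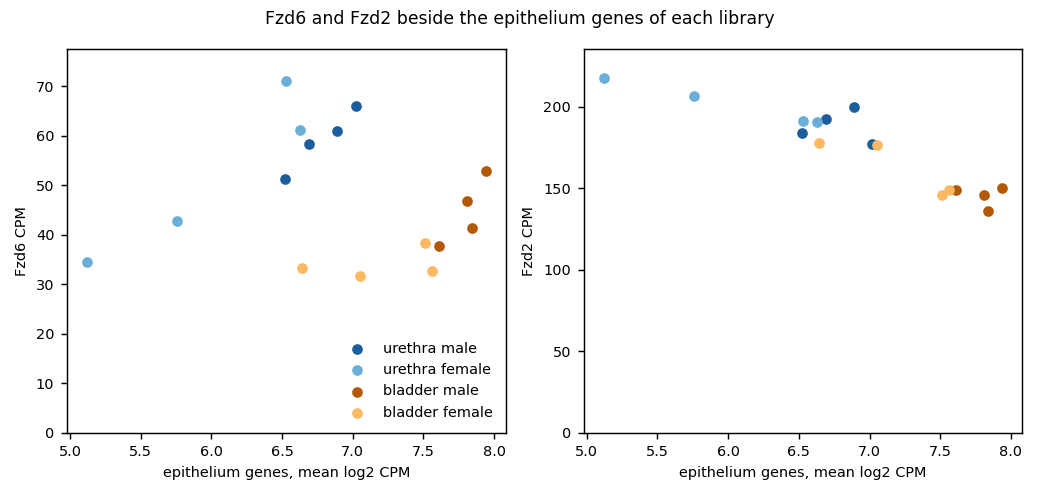
Fzd6 (left) and Fzd2 (right) in CPM, on axes from 0, against the mean log2 CPM of 14 epithelium marker genes, with 1 point per library coloured by group. The female urethra libraries with epithelium values of 5.12 and 5.76 are the lowest urethra libraries for Fzd6, at 34.4 and 42.7 CPM, and lie at 217.7 and 206.3 CPM for Fzd2, the highest of all libraries.

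Fzd4, Fzd9 and Fzd10 make up the last branch, and their tissue differences went in both directions. Fzd10, a receptor known from the dorsal neural tube and the limb bud, had 46.1, 47.9, 56.1 and 43.9 CPM in male urethra and 61.7, 52.1, 56.6 and 61.9 CPM in female urethra. It had 9.33, 7.15, 8.61 and 6.45 CPM in male bladder and 6.27, 9.15, 10.99 and 7.11 CPM in female bladder. The groups were far apart, with 1271 to 1941 counts per urethra library against 112 to 217 per bladder library. The log2 fold change was 2.70 ± 0.11 (adjusted p = 1.51e-12, edgeR), and Fzd10 was the only member that was higher by at least 2-fold on the mean of both sexes, as were 12.6% of all tested genes. Within litter and sex it ran from 2.30 to 3.28 over the 8 pairs.

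A neighbour of Fzd10 showed the same contrast. Fzd10os, named here after its values were seen, is a long non-coding RNA on the opposite strand (GRCm38, chr5:128579106-128600693, minus strand), whose start lies 150 bases from that of Fzd10 (chr5:128600844-128604093, plus strand). It had 8.98, 10.2 and 11.7 CPM in the urethra, as lowest, median and highest, against 1.18, 1.61 and 2.22 CPM in the bladder. The tissues did not overlap, and the log2 fold change was 2.63 ± 0.11 (adjusted p = 4.51e-12, edgeR). The exons of Fzd10 and Fzd10os do not overlap, and counting used the strand.

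Fzd4 had 48.6, 44.7, 47.7 and 42.2 CPM in male urethra and 38.6, 47.4, 44.9 and 45.0 CPM in female urethra. It had 59.8, 72.7, 61.2 and 69.4 CPM in male bladder and 70.2, 66.2, 76.9 and 77.5 CPM in female bladder. The highest urethra library stayed under the lowest bladder library. Fzd4 thus had a log2 fold change of −0.62 ± 0.06 (adjusted p = 3.27e-08, edgeR). Fzd4 is best known in endothelium, where it receives Norrin and Wnt7 signals in the eye and brain of mice. The endothelium markers were higher in the urethra, and their part in the Fzd4 difference was not tested.

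Fzd9 was the rarest member, with 41 to 71 counts per urethra library and 19 to 29 counts per bladder library, and its values carry the largest counting error. Its levels were 2.53, 1.99, 1.90 and 1.80 CPM in male urethra and 1.30, 1.93, 1.74 and 1.38 CPM in female urethra. They were 1.10, 1.27, 1.11 and 1.29 CPM in male bladder and 1.12, 1.08, 1.47 and 1.17 CPM in female bladder. The male tissues were apart and the female tissues overlapped. The log2 fold change over both sexes was 0.58 ± 0.12 (adjusted p = 0.00041, edgeR).

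**Figure D3:**
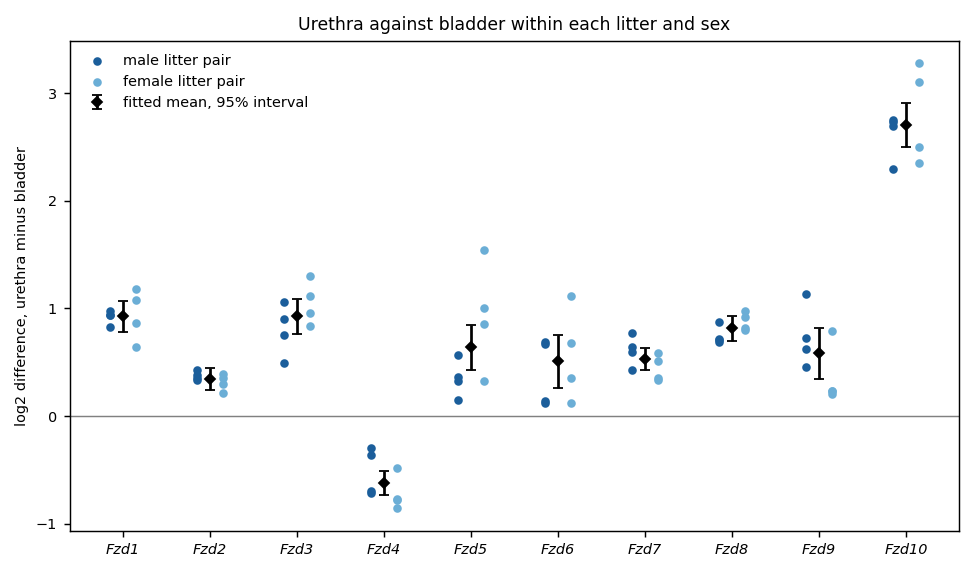
Log2 difference of urethra minus bladder for each Frizzled gene. Small points are the 4 male (left) and 4 female (right) litter pairs. Diamonds are the fitted mean of both sexes with its approximate 95% interval, by the normal quantile. The 8 pairs of each gene lie on 1 side of 0, with Fzd10 between 2.30 and 3.28 and Fzd4 between −0.86 and −0.30.

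Within females 9 Frizzled genes were called, 8 higher in the urethra and Fzd4 lower, where 65.7% of all tested genes were called, 32.6% higher and 33.1% lower. Fzd9 did not pass the test in females, at 0.38 ± 0.18 (adjusted p = 0.0675, edgeR), and was past the threshold without the female urethra library of litter 1 (0.0342) or the female bladder library of litter 3 (0.0267), and on plain library totals (0.0166). Within males 8 were called, 7 higher in the urethra and Fzd4 lower, where 64% of all tested genes were called, 31.4% higher and 32.6% lower. Fzd5 in males was at 0.35 ± 0.15 (adjusted p = 0.0538, edgeR) and Fzd6 at 0.40 ± 0.18 (adjusted p = 0.0575, edgeR), both just short of the threshold. With the litter as a block Fzd5 reached an adjusted p of 0.0486, with blocks by litter and sex Fzd6 reached 0.0499, and DESeq2 called both, at 0.0432 and 0.038. Plain library totals also called both (Fzd5 0.00796, Fzd6 0.0148). In either sex 8 members had no overlap between tissues, against 55.8% of all tested genes in females and 60.6% in males.

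The exact calls of Fzd5 and Fzd6 in males thus hung on settings and single libraries, and each was called under 13 of the 24 alternatives. Fzd5 passed with RLE factors (adjusted p = 0.0461, edgeR) and with no filter on low counts (0.0283). Fzd6 passed at the threshold with RLE factors (adjusted p = 0.05, edgeR), and at 0.0033 without the female urethra libraries of litters 3 and 4. Fzd5 passed without the female urethra library of litter 1 or 4, the male urethra library of litter 1, any 1 female bladder library or the male bladder library of litter 3, with adjusted p between 0.00935 and 0.0496. Fzd6 passed without the female urethra library of litter 2 or 4, the male urethra library of litter 2, the female bladder library of litter 1, 2 or 4 or the male bladder library of litter 3, with adjusted p between 0.0181 and 0.0491. With the epithelium covariate Fzd5 in males was at 0.22 ± 0.20 (adjusted p = 0.397) and Fzd6 in males at 0.96 ± 0.14 (adjusted p = 2.63e-05).

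Whether the tissue difference itself differed between the sexes was tested as an interaction, and no Frizzled gene passed with edgeR, nor with DESeq2. The share of all tested genes that passed was 0.668%. The signed urethra minus bladder difference was more positive in males for 0.537% and more negative for 0.131%. At an unadjusted p under 0.05 there was 1 gene with either tool. Fzd5 had the lowest value, an urethra minus bladder difference smaller in males than in females by a log2 value of −0.59 ± 0.21 (adjusted p = 0.365, edgeR). Its 4 male pairs had differences of 0.36, 0.33, 0.15 and 0.57, and its 4 female pairs 0.33, 1.54, 0.85 and 1.00, so that all but the female pair of litter 1 were above the male pairs.

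Males were then set against females within each tissue. In the urethra no Frizzled gene passed with edgeR or with DESeq2, where 6.39% of all tested genes did with edgeR (3.97% higher in males and 2.42% lower), and 2 had an unadjusted p under 0.05 in edgeR against 1 in DESeq2. Fzd3 was lower in the male than in the female library of all 4 litters, by 0.12 to 0.57 (log2), and its fitted difference was −0.29 ± 0.11 (adjusted p = 0.162, edgeR). Without the female urethra library of litter 1 this was −0.39 ± 0.11 (adjusted p = 0.0319), which made it the 1 member called. Fzd9 was higher in the male library of all 4 litters, with a fitted difference of 0.38 ± 0.16 (adjusted p = 0.2, edgeR). Fzd10 was lower in males in all 4 litters, at −0.26 ± 0.13 (adjusted p = 0.3, edgeR). The share of all tested genes with a single sign over the 4 litters is not given here, so nothing is read from these signs. The male and female ranges overlapped in all 10 members, while 13.4% of all tested genes had none.

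In the bladder no member passed between males and females with edgeR or DESeq2, where 0.581% of all tested genes did with edgeR (0.247% higher in males and 0.334% lower), and 3 had an unadjusted p under 0.05 with either tool. These were Fzd5 at 0.40 ± 0.16 (adjusted p = 0.294, edgeR), Fzd6 at 0.40 ± 0.18 (adjusted p = 0.383, edgeR) and Fzd2 at −0.16 ± 0.07 (adjusted p = 0.37, edgeR). Fzd7 was the 1 member with a single sign in the bladder, lower in the male library of all 4 litters, and its fitted difference was −0.11 ± 0.08 (adjusted p = 0.602, edgeR). No share over all tested genes stands beside this sign either. Approximate 95% intervals of the male minus female differences (log2) were taken from the standard errors by the normal quantile. They lay between −0.52 and 0.69 over the 10 members in the urethra, and between −0.40 and 0.75 in the bladder. Such intervals are narrower than the F test allows. That of Fzd10 in the urethra ran from −0.518 to −0.001, at an unadjusted p of 0.0663 (edgeR). The ranges of the sexes overlapped in each member, and 6.62% of all tested genes had none.

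Set side by side per length of exon, the order of the receptors changed between tissues at the top and in the middle. In the urethra Fzd1 led with 73.3 ± 6.81 FPKM (SD, n = 8), followed by Fzd2 with 53.2 ± 3.49 and Fzd7 with 37.4 ± 3.18. In the bladder Fzd2 led with 42.0 ± 4.14 FPKM, followed by Fzd1 with 38.5 ± 4.61 and Fzd7 with 25.9 ± 1.73. Fzd1 was above Fzd2 in 8 of 8 urethra libraries, and Fzd2 was above Fzd1 in 8 of 8 bladder libraries, although their ranges in the bladder overlapped.

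Fzd10 ranked 4 of 10 in the urethra with 16.4 ± 2.12 FPKM and 7 of 10 in the bladder with 2.50 ± 0.51 FPKM. Fzd6 followed it in the urethra with 11.6 ± 2.54 FPKM and ranked 5 in the bladder too, with 8.17 ± 1.54 FPKM. Fzd4 ranked 6 in the urethra with 6.68 ± 0.49 FPKM and 4 in the bladder with 10.3 ± 0.98 FPKM. These neighbours were close: Fzd10 was above Fzd6 in 7 of 8 urethra libraries and Fzd4 above Fzd6 in 7 of 8 bladder libraries.

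At the lower end stood Fzd3 with 4.89 ± 0.80 FPKM, Fzd8 with 4.12 ± 0.36, Fzd5 with 2.55 ± 0.42 and Fzd9 with 0.79 ± 0.17 in the urethra. In the bladder Fzd3 had 2.55 ± 0.28 FPKM, Fzd8 2.34 ± 0.14, Fzd5 1.65 ± 0.34 and Fzd9 0.52 ± 0.06. Fzd3 and Fzd10 in the bladder, and Fzd10 and Fzd8, could not be ordered, as the first was above the second in 5 of 8 and in 4 of 8 libraries. Fzd9 was last in both tissues, and its range did not reach that of Fzd5. Exon length was summed over all exons of a gene, which lowers the FPKM of a gene such as Fzd3 if it mostly uses its shorter transcripts.

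The 10 genes summed to 210.9 ± 12.5 FPKM in the urethra and 134.4 ± 9.51 FPKM in the bladder (SD, n = 8 each). Fzd1, Fzd2 and Fzd7 together took 77.7 ± 1.64% of the sum in the urethra and 79.1 ± 1.64% in the bladder. Within it, Fzd1 took 34.7 ± 1.35% in the urethra and 28.6 ± 1.75% in the bladder, and Fzd2 25.2 ± 0.79% and 31.2 ± 1.45%. Fzd10 took 7.76 ± 0.79% in the urethra and on average 1.85% in the bladder, while Fzd4 took 3.18 ± 0.26% and 7.68 ± 0.72%. The branch of Fzd4, Fzd9 and Fzd10 thus held 11.3 ± 0.61% of the family in the urethra and 9.93 ± 0.60% in the bladder, although its main member differed.

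**Figure D4:**
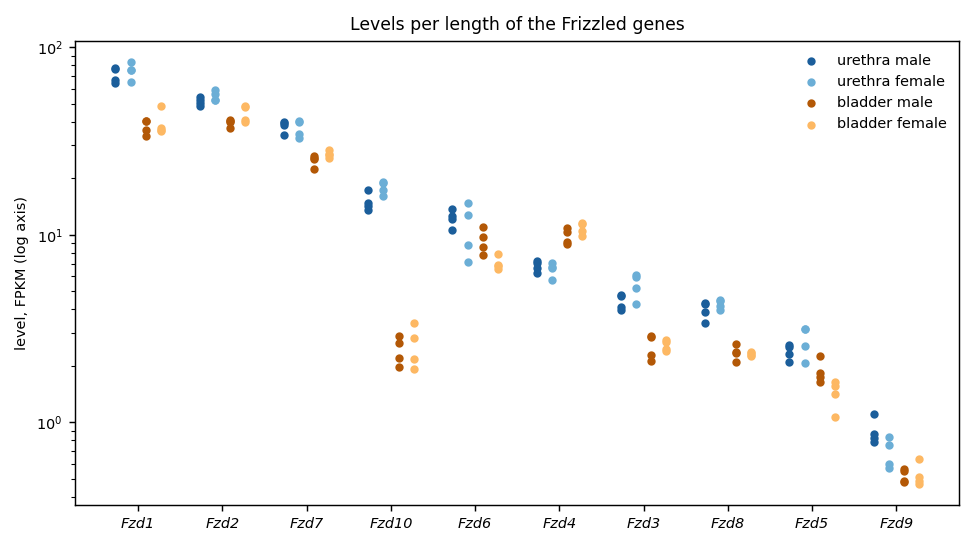
Level of each Frizzled gene per exon length (FPKM, log axis), ordered by mean urethra level, with 1 point per library. Fzd1, Fzd2 and Fzd7 are on top in all 4 groups, with means between 24.9 and 75.1 FPKM, and Fzd10 is the member whose urethra and bladder points are farthest apart.

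The other genes of the pathway were taken from 9 lists of ligands, partners, regulators and targets, with 80 genes, of which 74 were tested. Between tissues 48 of them were higher in the urethra and 14 lower by edgeR's test, with a median log2 fold change of 0.43. Of all tested genes 36.5% were higher and 38.5% lower, with a median of −0.03, and nothing is read from a single list whose counts are near these shares. Of the Wnt ligands 9 of 15 were higher and 3 lower. Wnt7a, a ligand of epithelium and neurons, averaged 18.9 ± 11.6 CPM in the urethra, against 1.12 ± 1.79 CPM in the bladder, and Wnt2b, a ligand of embryonic mesenchyme, 8.34 ± 1.14 and 36.6 ± 8.76 CPM (SD, n = 8 each). Their log2 fold changes were 4.34 ± 0.53 (adjusted p = 3.14e-06, edgeR) and −2.13 ± 0.14 (adjusted p = 8.33e-10, edgeR).

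Outside the cell, 4 of the 5 soluble Frizzled-related proteins, which hold a Frizzled-like Wnt-binding domain, were higher in the urethra and none lower. Sfrp5 differed most, by 3.66 ± 0.28 (adjusted p = 4.37e-09, edgeR). Within males 4 of the 5 were called and within females 2: Sfrp2 was at 1.13 in males and 0.07 in females, and Sfrp4 at 2.61 in males and 0.05 in females. Their adjusted p in females were 0.519 and 0.878 (edgeR). The interaction of tissue and sex is not given here for these genes, so no difference between the sexes is read from these calls. Of the 4 genes for export, Shisa2 was higher by 1.04 ± 0.11 (adjusted p = 1.66e-07, edgeR) and Shisa3 had a log2 fold change of −1.20 ± 0.27 (adjusted p = 0.000826, edgeR). Shisa proteins are known from frog embryos to hold Frizzled proteins back in the endoplasmic reticulum.

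Among the co-receptors 6 of 7 were higher. Musk, known from the nerve-muscle synapse, differed by 4.12 ± 0.40 (adjusted p = 7.86e-08, edgeR), next to the skeletal muscle markers that differed likewise. Its level was low, at 1.365 ± 0.383 CPM in the urethra, against 0.077 ± 0.089 CPM in the bladder (SD), where it was barely detected. Ryk, at 119.1 ± 4.37 CPM in the urethra, against 126.5 ± 6.41 CPM in the bladder, had the only lower call at −0.09 ± 0.04 (adjusted p = 0.0388, edgeR), and that call was kept in only 7 of 24 alternatives. Of the 4 partners of Norrin and Wnt7 receptors 3 were higher, led by Norrin itself (Ndp), the ligand of Fzd4, at 1.47 ± 0.12 (adjusted p = 8.65e-09, edgeR). Ndp averaged 21.2 ± 4.57 CPM in the urethra, against 7.52 ± 1.66 CPM in the bladder, the opposite direction to its receptor.

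Frizzled proteins are removed from the membrane by Rnf43 and Znrf3, which R-spondins with Lgr receptors hold in check. Of 8 such genes tested 5 were higher and 3 lower. Rspo2 averaged 24.4 ± 9.70 CPM in the urethra, against 2.87 ± 1.66 CPM in the bladder, at 3.00 ± 0.25 (adjusted p = 3e-08, edgeR), while Rspo1 averaged 5.62 ± 1.07 and 28.2 ± 8.66 CPM, at −2.34 ± 0.17 (adjusted p = 3.19e-09, edgeR). Of 8 Dishevelled genes and regulators 4 were higher and 3 lower, with Dact1 at 1.47 ± 0.06 (adjusted p = 1.1e-12, edgeR) and Nkd1 at −0.91 ± 0.05 (adjusted p = 1.13e-10, edgeR) at the ends. Of 15 genes of the beta-catenin relay 11 were higher and none lower, led by the transcription factor Lef1 at 1.604 ± 0.10 (adjusted p = 3.83e-10, edgeR). With the epithelium covariate 7 of the 15 were higher. Of 8 planar cell polarity genes 5 were higher and 3 lower, with Celsr3, a gene strong in neurons, at 3.78 ± 0.40 (adjusted p = 5.85e-07, edgeR) and Vangl1 at −0.37 ± 0.05 (adjusted p = 7.35e-06, edgeR). With that covariate 2 Dishevelled genes and 3 planar cell polarity genes were higher. The share of all tested genes called with the covariate is not given here, so nothing is read from these lower counts.

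**Figure D5:**
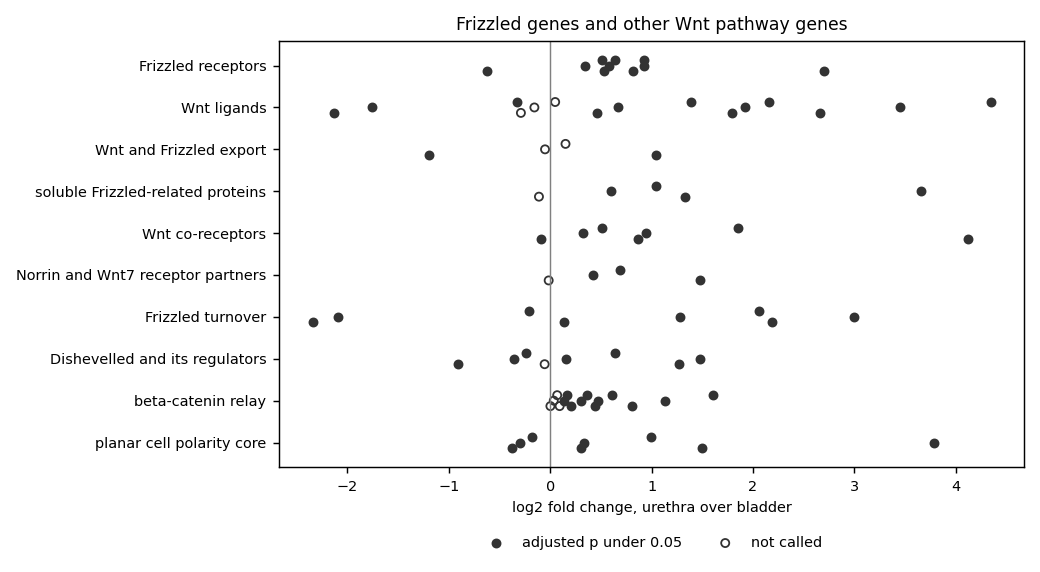
Log2 fold change of urethra over bladder (mean of both sexes) for the Frizzled genes and for 9 lists of Wnt pathway genes, with 1 point per tested gene, filled where the adjusted p was under 0.05. The Frizzled genes lie between −0.62 and 2.70, and the Wnt ligands between −2.13 and 4.34.

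Between males and females in the urethra 7 of the 74 tested pathway genes were higher and 4 lower, where 3.97% of all tested genes were higher and 2.42% lower, and no receptor passed. All 14 epithelium markers had a positive difference (median 0.63), of which Krt7 was called at 1.09 (adjusted p = 0.0242, edgeR), as was 1 of the 5 mesothelium markers, Msln, at 1.29 (adjusted p = 0.0211, edgeR). Their part in these differences was not tested. The ligand gene Wnt9b averaged 13.3 ± 2.24 CPM in males, against 0.992 ± 0.282 CPM in females (SD, n = 4 each), at 3.75 ± 0.29 (adjusted p = 3.4e-07, edgeR). Sfrp2 was at 0.71 ± 0.10 (adjusted p = 0.00023, edgeR), Rspo3 at 0.86 ± 0.19 (adjusted p = 0.0107, edgeR) and Tspan12, a partner of Fzd4, at 0.53 ± 0.12 (adjusted p = 0.0153, edgeR). Lower in males were Rspo2 at −1.07 ± 0.30 (adjusted p = 0.0489, edgeR), Lef1 at −0.62 ± 0.13 (adjusted p = 0.00939, edgeR) and Dact1 at −0.36 ± 0.08 (adjusted p = 0.00885, edgeR). In the bladder none was higher in males and 1 was lower, Sfrp4 at −1.96 ± 0.34 (adjusted p = 0.0124, edgeR), named here after its value was seen.

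The genes most like each receptor were found by Pearson's r of log2 CPM over the 16 libraries, which share the tissue difference and the scaling. Fzd1 was most like Axin2, a feedback inhibitor that beta-catenin switches on, with r = 0.991 over all libraries and 0.885 after group means were taken off. Axin2 averaged 51.5 ± 6.64 CPM in the urethra, against 23.5 ± 2.32 CPM in the bladder. Like Fzd1, it had its highest bladder value, 28.7 CPM, in the female bladder library of litter 3.

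The next likeness of Fzd1 was to Zswim4 (0.988). Fzd10 went with Stx6 (0.993) and Csrnp2 (0.992), and Fzd4 with Aebp1 (0.986), a protein of collagen matrix, and Nfib (0.98). Fzd2 went with Stag1 (0.983) and Tmem200c (0.981), Fzd7 with Ankrd42 (0.975) and Foxred2 (0.972), and Fzd8 with Ccar2 (0.988) and Txnrd1 (0.986). Fzd3 went with Trim33 (0.99) and Tulp4 (0.989), and Fzd5 with Fbxo41 and Ralgapb (both 0.945). Fzd6 went with Ypel5 (0.938) and Muc15 (0.926), a mucin of epithelium, and Fzd9 with Fgd2 (0.91) and Mall (0.906). These values rank pairs among 18254 genes and were not tested. With group means taken off, r was lower in every pair named, from 0.547 for Fzd9 with Mall to 0.954 for Fzd2 with Tmem200c. Fzd10 with Stx6, the highest over all libraries, was then at 0.785.

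All 10 genes were found on GRCm38, where GENCODE gives the same starts and ends as the count table. Fzd5 and Fzd7 lie on chromosome 1, Fzd1, Fzd9 and Fzd10 on chromosome 5, Fzd4 on 7, Fzd2 on 11, Fzd3 on 14, Fzd6 on 15 and Fzd8 on 18. Fzd3 and Fzd6 have up to 6 coding exons, Fzd4 has 2 and the other 7 have 1. Up to 250 bases before the RefSeq start of 3 genes are shown. The Fzd4 window was cut where the gene of the count table began, and the RefSeq starts of Fzd1 and Fzd7 lay outside the gene of the count table. They are shown for Fzd1 and Fzd7, which were higher in the urethra, and Fzd4, which was lower. Capitals mark, on either strand, the TATA box letters TATAAA, the CAAT box letters CCAAT and the GC box letters GGGCGG. The windows are chr5:4758217-4758466 (minus strand), chr1:59481897-59482146 (plus strand) and chr7:89404116-89404354 (plus strand) on GRCm38.p6.
Fzd1: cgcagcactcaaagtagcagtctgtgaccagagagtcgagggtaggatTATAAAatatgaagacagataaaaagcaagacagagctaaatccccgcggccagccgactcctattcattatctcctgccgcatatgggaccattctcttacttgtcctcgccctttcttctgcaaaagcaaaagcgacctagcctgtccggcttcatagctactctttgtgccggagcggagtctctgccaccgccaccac
Fzd7: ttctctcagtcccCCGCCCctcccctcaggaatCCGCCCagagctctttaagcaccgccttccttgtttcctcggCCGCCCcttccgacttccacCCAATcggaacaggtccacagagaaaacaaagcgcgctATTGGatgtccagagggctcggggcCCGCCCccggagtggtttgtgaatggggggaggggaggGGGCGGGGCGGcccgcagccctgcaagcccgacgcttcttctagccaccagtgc
Fzd4: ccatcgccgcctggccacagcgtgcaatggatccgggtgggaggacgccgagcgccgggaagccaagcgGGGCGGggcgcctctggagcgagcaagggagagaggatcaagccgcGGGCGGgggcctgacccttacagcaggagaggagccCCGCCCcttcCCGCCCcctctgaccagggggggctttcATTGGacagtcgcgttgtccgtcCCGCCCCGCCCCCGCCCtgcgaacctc
The Fzd1 window held TATAAA, which occurred in 12.4% of 32851 such windows, and no GGGCGG. The Fzd7 and Fzd4 windows held GGGCGG 6 and 7 times, overlaps counted, against at least once in 32.7% of all windows, and CCAAT 2 times and 1 time, against 33.8%. The Tcf and Lef letters CTTTGAT and CTTTGAA, found in 3.21% and 4.46% of all windows, were in none of the 6 members that the RefSeq table held. Among the members whose windows are not shown, all higher in the urethra, Fzd5 held GGGCGG 9 times and CCAAT 1 time. Fzd9 and Fzd10 held GGGCGG 1 time each. A match of letters is a description of the window and not a site of binding, and no link to direction is read from it.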

How the data were processed

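Read pairs per gene symbol were counted by the authors, and the deposited counts were used as they stand. The tools were bcl2fastq, HISAT2 2.1.0 on GRCm38, SAMtools and Subread 1.6.3, per the submitters' processing notes. Strand setting 2 of featureCounts was used, per the file headers. A second deposited table of normalized values was not used here. Per the labels' protocols, tissue was treated with 1% trypsin for 90 minutes and parted by forceps, and poly(A) libraries were made from 250 ng of RNA and read as 100 bp pairs.

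Counts were fitted in edgeR 4.0.16 (R 4.3.3, limma 3.58.1) with TMM, filterByExpr and the robust quasi-likelihood test, in 1 fit of the 4 groups without the litter, and p-values were adjusted by Benjamini-Hochberg over 18254 genes, with calls under 0.05. Standard errors were approximated from each fold change and its F statistic (size over the root of F). Log2 CPM used a prior count of 2. Coding sequences were aligned with MAFFT 7.526 on GENCODE mouse release M21, and plots were made with Python 3.11.15 and matplotlib 3.10.9. The fit was tested on simulated data.

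Alternatives were library totals, RLE factors, DESeq2 1.42.0, no filter, litter blocks, each library left out, an epithelium covariate and 2 libraries left out together. The labels pair libraries by litter. Deviations from group means of urethra and bladder of the same litter and sex correlated at 0.09 to 0.41 over genes (median 0.19, 7 of 8 pairs over 0.1). Those of males and females of the same litter and tissue correlated at −0.05 to 0.27 (median 0.12, 4 of 8 pairs over 0.1). No value for libraries of different litters is given here. No 2 libraries of a group were copies, with chi-squared per degree of freedom of 4.55 to 34.0 over 24 pairs. The members, gene lists and tests were chosen with earlier results of these data known. The named genes were all members, the called gene at either end of each list and the 2 genes most like each member.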

Additional observations from a re-analysis of the deposited data

Results flagged for a closer look

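Fzd1 in female bladder had 1 library far above the other 3: litter 3 was at 203.3 CPM, against 150.4, 151.3 and 154.8 CPM in litters 1, 2 and 4. The gap was larger than Dixon's 95% limit for 4 libraries. It was the 1 such case among 40 sets of 4 libraries (10 genes in 4 groups), where chance gives about 1 in 20. The same library was also high for Axin2, at 28.7 CPM, and had the lowest epithelium markers of the bladder, at a mean log2 CPM of 6.64; whether these go together was not tested.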

How the results depend on the processing

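Between tissues all 10 Frizzled genes kept their direction under each of the 24 alternatives, and all kept their call on the mean of both sexes except Fzd2 with the epithelium covariate (0.16, adjusted p = 0.0622; in females 0.11, adjusted p = 0.273). With that covariate Fzd6 in females was at 1.22 and Fzd7 in females at 0.29, and Fzd2 in males at 0.20; without the 2 female urethra libraries lowest in epithelium genes Fzd6 in females was at 0.96. The number of members called between tissues ran from 9 to 10 over both sexes, from 8 to 10 in females and from 8 to 10 in males. The count of members that differed between males and females in the urethra, and of those lower in males, was 0 or 1 over the libraries left out in turn, and the 1 was Fzd3 without the female urethra library of litter 1. The replicate block by litter changed only the call of Fzd5 in males (log2 0.34, adjusted p = 0.0486), and the block by litter and sex only that of Fzd6 in males (0.41, adjusted p = 0.0499). With library totals in place of TMM the share of higher genes among those called was 71.1% for males against females in the urethra (62.1% with TMM), 53.3% in the bladder (42.5%), 61.1% between tissues in females (49.6%) and 63.3% in males (49%). With the covariate 7 genes of the beta-catenin relay were higher in the urethra, against 11 without it. No share of all tested genes with the covariate stands beside this, so nothing is read from the drop. Fzd9, with 19 to 71 counts per library, is the member that depth limits most, and TMM assumes that most genes do not differ, where 75% did.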
